A study of Rattus norvegicus with 15 samples.

Results

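The genes described here belong to the cyclic AMP (cAMP) signaling route of rat skeletal muscle. They were chosen by name and comprise the phosphodiesterases Pde4a, Pde4b, Pde4d and Pde7a, the transcription factor Crem, and the protein kinase A (PKA) subunits Prkar1a, Prkar2a, Prkaca and Prkacb. These are 9 of the 14217 genes that had a probe set of their own on the array, and all 23 probe sets that carry only their symbols are reported. After protein restriction, all 3 Pde4d probe sets, both Pde4b probe sets and 1 of 6 Crem probe sets were called lower. At the later time point, Pde4b and Crem were called lower and Pde4d was not, but a difference between the times was not shown for Pde4d. Each late call was lost when any 1 of the late control arrays was left out. Lower calls over all probe sets then fell from 53 to between 2 and 9. Over all probe sets, 1.58% were called lower after restriction and 0.171% at the later time point. All are calls by rank products, and limma, a second test, called 0 probe sets at either time. Of the PKA subunits only Prkar1a was called, slightly higher after restriction.

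The study used male Wistar rats, and RNA of their gastrocnemius, a fast calf muscle, was read on 15 GeneChip expression arrays, each of them from another rat. CN rats (4 arrays) ate a 15% casein diet and LP rats (4 arrays) a diet of 8% casein with matched calories, both for 4 weeks. The rats were 3.5 weeks old when bought, shortly after weaning. CN-R (3 arrays, replicates 1, 2 and 4) and LP-R (4 arrays) rats had the same first diets and were sampled on day 84. All groups were sampled after a 16 h fast. The rats on arrays had been selected for a body weight near the average of their group, so the groups may vary less than rats at large. According to the study's methods LP-R rats ate the control diet in the second period, whereas the sample labels keep them on their first diet, and the methods are followed here. Replicate 4 of CN-R is a control by its title and description and a restricted rat by its treatment field, and it was kept in CN-R.

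The values are log2 signals summarized by FARMS, a method that shrinks a probe set to a near constant where its probes do not move together. The early arrays (CN, LP) and the late arrays (CN-R, LP-R) were summarized apart, so LP was compared only with CN and LP-R only with CN-R. Signals ran from 5.24 to 14.07 on the early and from 5.38 to 14.16 on the late arrays, and muscle markers such as Acta1 and Ckm lay between 11.59 and 14.07 on the early arrays. In whole muscle, fewer cells of a type and less RNA per cell cannot be told apart.

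A probe set was called by rank products, the test that the study's methods name, where its pfp, the share of false positives estimated among calls at least as extreme, was 0.05 or less. For LP against CN, 1.58% of 31042 probe sets were called lower and 1.68% higher. For LP-R against CN-R, 0.171% (53) were called lower and 0.345% (107) higher, a split that turned to 156 and 65 when each probe set was centered before the permutations. limma, which was run beside it, called 0 probe sets in either comparison after Benjamini-Hochberg adjustment at 0.05, with 2342 (7.54%) and 1566 (5.04%) at an unadjusted p under 0.05, so each call below is a call by rank products alone.

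Adenylyl cyclases make cAMP after hormones such as adrenaline act on their receptors, and phosphodiesterases break it down. cAMP binds the regulatory subunits of PKA and frees the catalytic subunits, which in muscle turn on glycogen breakdown and phosphorylate factors of the CREB family at cAMP response elements (CRE) in DNA. Crem is a member of that family, and from an internal promoter it also gives a short repressor, ICER, which cAMP itself induces. Transcripts of phosphodiesterase 4 genes are likewise known to rise with cAMP in many cells, which makes both feedback inhibitors of the route.

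To show how these genes differ in the elements the route acts through, the windows from 250 bases before to 50 after the annotated starts (RefSeq, GRCr8) were searched for the full CRE, TGACGTCA, and for its core on either strand, read here as TGACG or CGTCA. The full CRE was found in 1.83% of 33469 such windows and the core in 21.2%. Starts were matched for 7 of the 9 genes, the exceptions being Pde7a and Prkar2a. In the sequences below the capitals mark these matches, and an unbroken run of 8 capitals is a full CRE. Of the 3 Crem starts, 2 hold a full CRE, and the last of the Crem windows holds 2, at 35 bases before and 39 bases after the start.
Crem chr17:58933816-58934115 (plus strand): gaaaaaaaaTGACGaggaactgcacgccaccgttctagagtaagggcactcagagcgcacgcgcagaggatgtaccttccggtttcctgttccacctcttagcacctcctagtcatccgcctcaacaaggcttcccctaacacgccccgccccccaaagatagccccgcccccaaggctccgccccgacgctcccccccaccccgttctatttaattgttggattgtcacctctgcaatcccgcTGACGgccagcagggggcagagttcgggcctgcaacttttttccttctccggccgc
Crem chr17:58984547-58984846 (plus strand): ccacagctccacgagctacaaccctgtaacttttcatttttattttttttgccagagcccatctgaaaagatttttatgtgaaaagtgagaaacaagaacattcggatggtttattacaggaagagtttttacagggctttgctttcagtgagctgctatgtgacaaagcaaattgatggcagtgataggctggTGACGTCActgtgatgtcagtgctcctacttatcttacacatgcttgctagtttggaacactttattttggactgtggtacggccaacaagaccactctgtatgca
Crem chr17:58985240-58985539 (plus strand): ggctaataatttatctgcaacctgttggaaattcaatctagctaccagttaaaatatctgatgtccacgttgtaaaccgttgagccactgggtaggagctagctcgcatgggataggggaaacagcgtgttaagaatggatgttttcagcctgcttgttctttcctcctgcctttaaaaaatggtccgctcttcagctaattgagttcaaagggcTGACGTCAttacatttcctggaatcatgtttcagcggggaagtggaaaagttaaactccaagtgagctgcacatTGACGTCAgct
Neither Pde4b window holds a core, and both are printed because Pde4b and Crem were the genes called at both times.
Pde4b chr5:122028706-122029005 (plus strand): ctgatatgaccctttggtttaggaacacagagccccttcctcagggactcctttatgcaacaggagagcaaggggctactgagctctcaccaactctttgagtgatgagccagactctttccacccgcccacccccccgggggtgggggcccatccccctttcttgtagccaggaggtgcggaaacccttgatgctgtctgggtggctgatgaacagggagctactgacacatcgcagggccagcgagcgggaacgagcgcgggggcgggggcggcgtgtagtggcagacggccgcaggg
Pde4b chr5:122222323-122222622 (plus strand): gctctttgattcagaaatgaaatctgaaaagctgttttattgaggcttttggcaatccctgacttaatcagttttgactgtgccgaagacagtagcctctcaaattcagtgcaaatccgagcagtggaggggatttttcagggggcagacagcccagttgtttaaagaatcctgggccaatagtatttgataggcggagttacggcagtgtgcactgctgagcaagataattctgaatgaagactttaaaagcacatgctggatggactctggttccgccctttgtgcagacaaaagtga
Of the 5 Pde4d starts, 2 hold a core, and the window with a pair of them, 231 and 194 bases before the start, is shown.
Pde4d chr2:42592499-42592798 (plus strand): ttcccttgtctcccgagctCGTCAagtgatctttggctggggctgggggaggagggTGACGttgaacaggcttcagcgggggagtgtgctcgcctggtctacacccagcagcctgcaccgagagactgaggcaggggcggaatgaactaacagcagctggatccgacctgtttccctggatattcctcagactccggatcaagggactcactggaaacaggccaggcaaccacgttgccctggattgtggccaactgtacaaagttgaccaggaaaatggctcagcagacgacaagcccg
None of the Pde4d, Pde4a, Prkar1a, Prkaca and Prkacb windows holds a full CRE. A core was found at 2 of the 4 Pde4a starts and at the 1 start each of Prkaca and Prkacb. The Prkar1a window holds none. These matches describe the letters only. The probe sets were not assigned to starts, so the signals below do not say which start was used.

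Pde4d, which encodes a cAMP-specific phosphodiesterase of many splice forms, showed the largest changes of the 9 genes in LP. On probe set 1370569_at the log2 signal was 8.39, 8.46, 8.78 and 8.37 in CN and 7.74, 7.96, 8.01 and 8.25 in LP. The groups did not overlap, and the change was −0.51 ± 0.14 (SE, n = 4 and 4), which is 1.42 times more signal in CN (pfp 0, no permuted value having reached it, and exact permutation p = 0.0286, two-sided, the smallest this design allows). The limma adjusted p was 0.594.

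On the second probe set, 1368750_a_at, the log2 signal was 7.94, 8.07, 8.39 and 8.03 in CN and 7.43, 7.74, 7.73 and 7.88 in LP, again without overlap. The change was −0.41 ± 0.14 (pfp 0.0004). On 1392968_at the values were 10.89, 10.96, 11.004 and 10.93 in CN and 10.54, 10.57, 10.72 and 10.83 in LP. The change was −0.28 ± 0.07 (pfp 0.00271), also without overlap. In the deposited values these were the 3 member probe sets whose groups did not overlap in LP. There, 2.49% of the 3974 probe sets that varied (SD over 0.01) were lower without overlap. On all 3, LP replicate 1 was the lowest array and CN replicate 3 the highest, and LP replicate 4 was the LP array nearest to CN. Probe sets of 1 gene read the same RNA and are not replicates of each other. The calls of all 3 held without each of the 8 arrays in turn. Ranked among the varying probe sets alone, only 1370569_at was called (pfp 0.0447), with pfp 0.130 on 1368750_a_at and 0.265 on 1392968_at.

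In LP-R the Pde4d probe sets were not called, although all 3 means were lower than in CN-R, by amounts that depended on the scaling. On 1370569_at the log2 signal was 7.84, 7.86 and 8.02 in CN-R and 7.69, 7.97, 7.76 and 7.73 in LP-R, with overlap, and the change was −0.12 ± 0.08 (pfp 0.192). On 1368750_a_at it was 7.22, 7.38 and 7.51 in CN-R and 7.12, 7.21, 7.27 and 7.21 in LP-R, a change of −0.16 ± 0.09 (pfp 0.101). On 1392968_at all CN-R arrays read 10.27, and LP-R read 10.19, 10.18, 10.21 and 10.18. That last difference was small, −0.08 ± 0.0062, and the groups did not overlap in the deposited values (exact permutation p = 0.0286). With each array centered on the median of its varying probe sets the change was −0.03 ± 0.02 and the groups overlapped (exact permutation p = 0.229). That centering moved every late change up by 0.06, whereas the median change of all varying probe sets was −0.02. Whether the separation came from the scaling was not tested. On the deposited values this probe set ranked 3 among all probe sets by limma p, with an adjusted p of 0.539. Rank products, which go by the size of a change, gave a pfp of 0.174.

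Pde4b, a second cAMP-specific phosphodiesterase, was called lower at both times on both of its probe sets. On 1369044_a_at the log2 signal was 7.32, 7.56, 7.63 and 7.53 in CN and 6.97, 7.42, 7.21 and 7.01 in LP. LP replicate 2 lay above CN replicate 1 and the other LP arrays lay below all CN arrays, with a change of −0.36 ± 0.12 (pfp 0.00216, exact permutation p = 0.0571). This call held without each of the 8 arrays and was lost among the varying probe sets alone (pfp 0.214). On 1374157_at the log2 signal was 8.80, 9.0, 8.87 and 8.98 in CN and 8.70, 8.82, 8.93 and 8.41 in LP. The change of −0.20 ± 0.12 (pfp 0.0258) rested largely on LP replicate 4, without which it was −0.09 and not called, and the call was also lost without each CN array.

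In LP-R, 1374157_at read 8.83, 8.74 and 8.84 in CN-R and 8.44, 8.57, 8.57 and 8.22 in LP-R. The groups did not overlap, and the change was −0.36 ± 0.09 (1.28 times more signal in CN-R, pfp 0.0225, exact permutation p = 0.0286, limma adjusted p = 0.969). On 1369044_a_at the log2 signal was 7.54, 7.34 and 7.77 in CN-R and 7.01, 7.41, 7.25 and 6.83 in LP-R. LP-R replicate 2 lay above CN-R replicate 2 there, and the change was −0.43 ± 0.18 (pfp 0.0214, exact permutation p = 0.114). LP-R replicate 4 gave the lowest signal of the late arrays on both Pde4b probe sets.

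The other phosphodiesterases gave little signal variation. Pde4a, of the same enzyme family, had log2 signals of 7.80, 7.77, 7.64 and 7.65 in CN and 7.79, 7.75, 7.64 and 7.76 in LP. The change was 0.02 ± 0.05 and the groups overlapped throughout. On the late arrays Pde4a was nearly constant at 7.81. Pde7a, which encodes another cAMP-specific phosphodiesterase, was nearly constant at 6.93 on the early and 6.90 on the late arrays. A near constant in FARMS means that its probes did not move together, and says nothing on whether the RNA differed.

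**Figure D1:**
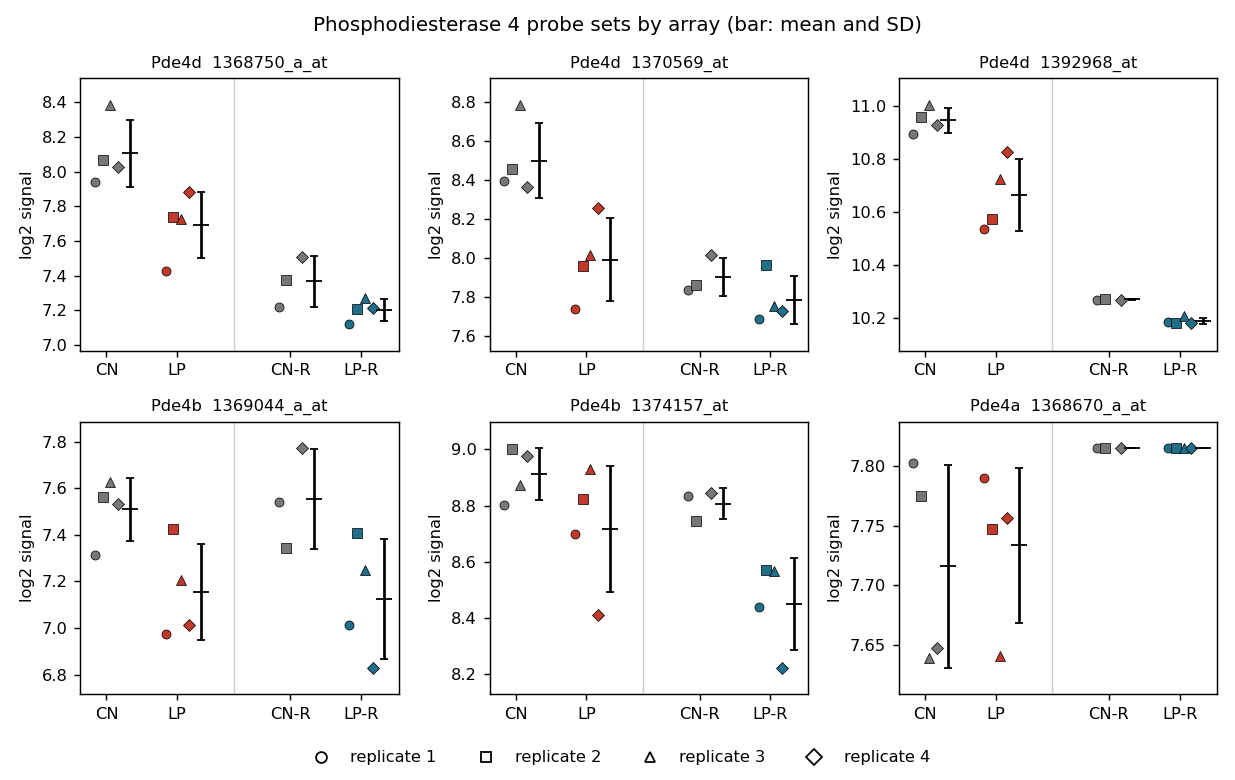
Log2 signal (vertical axis, a scale of its own in each panel) of the phosphodiesterase 4 probe sets on each array, with CN and CN-R in grey, LP in red, LP-R in blue and the mean and SD beside each group. The Pde4d panels show LP below CN without overlap, and Pde4b 1374157_at shows LP-R below CN-R without overlap. Early and late arrays were summarized apart, so levels are not compared across the vertical line.

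Crem had 6 probe sets, of which 5 varied on the early arrays. On 1396545_at the log2 signal was 7.49, 7.55, 7.88 and 7.62 in CN and 7.32, 7.51, 7.66 and 7.24 in LP. The groups overlapped, and the change was −0.20 ± 0.13 (pfp 0.0330, exact permutation p = 0.20). This single Crem call in LP was lost without 6 of the 8 arrays.

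The other 4 varying Crem probe sets were not called in LP. On 1378925_at the log2 signal was 10.03, 10.44, 10.68 and 10.43 in CN and 10.003, 10.20, 10.77 and 10.07 in LP, a change of −0.13 ± 0.22 (pfp 0.0546). On 1369737_at, 1393550_at and 1369738_s_at the changes were −0.12 ± 0.22, −0.12 ± 0.20 and −0.07 ± 0.21. On all 5 probe sets CN replicate 1 was the lowest CN array, CN replicate 3 the highest CN array, and LP replicate 3 the highest LP array. LP replicate 3 lay above every CN array on 1378925_at and 1369738_s_at. Without LP replicate 3 all 5 were called lower, with changes of −0.30 on 1378925_at and −0.22 on 1369738_s_at. When each probe set was centered before the permutations, 1369738_s_at was not called in that setting. Without CN replicate 3, in contrast, no Crem probe set was called. The change was then −0.0004 on 1369737_at and turned to 0.04 on 1369738_s_at.

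In LP-R, Crem was called lower on 2 of 6 probe sets. On 1396545_at the log2 signal was 7.91, 7.61 and 7.70 in CN-R and 7.28, 7.21, 7.44 and 7.40 in LP-R. The groups did not overlap, and the change was −0.41 ± 0.10 (1.32 times more signal in CN-R, pfp 0.0193, exact permutation p = 0.0286, limma adjusted p = 0.969). On 1369737_at it was 8.00, 8.22 and 8.62 in CN-R and 7.98, 7.92, 7.84 and 8.08 in LP-R. Only LP-R replicate 4 lay above a CN-R array, and the change was −0.32 ± 0.19 (pfp 0.0314). Without CN-R replicate 4, the array with the conflicting label, it was −0.15 and not called.

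On the remaining 4 Crem probe sets the mean was lower in LP-R without a call. On 1378925_at the log2 signal was 9.67, 9.74 and 10.18 in CN-R and 9.47, 9.56, 9.63 and 9.88 in LP-R, a change of −0.23 ± 0.18 (pfp 0.0721). The other changes were −0.13 ± 0.09 on 1369738_s_at, −0.11 ± 0.09 on 1387714_at and −0.09 ± 0.11 on 1393550_at. CN-R replicate 4 was the highest of the late arrays and CN-R replicate 1 the lowest CN-R array on 5 of 6 Crem probe sets. On 1396545_at, in contrast, CN-R replicate 1 was the highest array. The Crem probe sets thus did not order the rats alike, and only 1396545_at separated CN-R from LP-R.

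**Figure D2:**
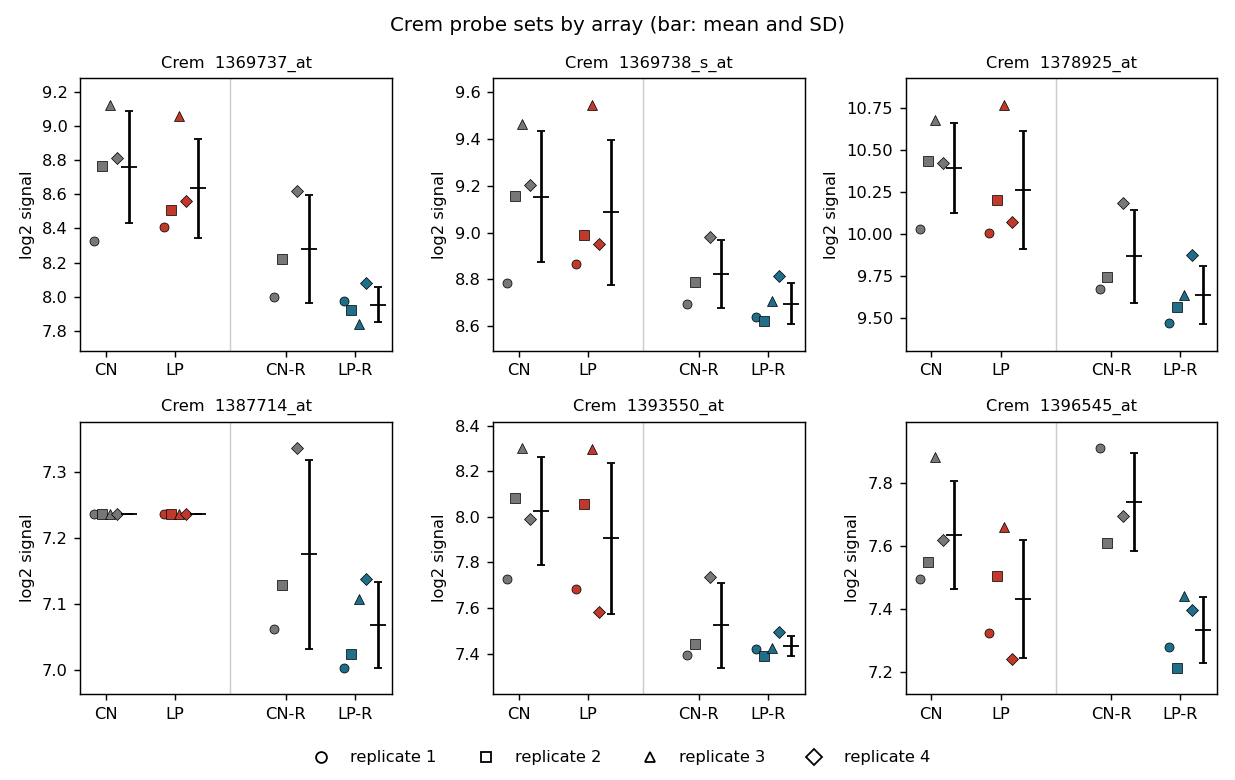
Log2 signal (vertical axis, a scale of its own in each panel) of the 6 Crem probe sets on each array, colored by group as in the plot of phosphodiesterases, with the mean and SD beside each group. LP replicate 3 stands high among LP arrays on 5 probe sets, and on 1396545_at all LP-R arrays (7.21 to 7.44) lie below all CN-R arrays (7.61 to 7.91).

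All 4 late calls, those of Pde4b and Crem, held without each LP-R array and were lost without each CN-R array. With 2 control arrays left, rank products called only 2 to 9 probe sets lower among all 31042, but 117 to 148 higher. With CN-R replicate 4 counted as LP-R, they called 15 lower and 332 higher. Lower calls were thus lost among all probe sets alike, so these omissions cannot tell whether the 4 calls depended on a control rat. With each probe set centered before permutation, Crem 1369737_at stayed called without CN-R replicate 1. The changes themselves kept their sign. For Pde4b they ran from −0.53 to −0.32 on 1369044_a_at and from −0.40 to −0.28 on 1374157_at, and for Crem from −0.47 to −0.32 on 1396545_at and from −0.47 to −0.15 on 1369737_at.

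The regulatory subunits of PKA hold the kinase inactive until cAMP binds. Prkar1a encodes the type I alpha form, and on 1388375_at the log2 signal was 10.13, 10.22, 10.17 and 10.18 in CN and 10.30, 10.27, 10.40 and 10.19 in LP. LP replicate 4 lay below CN replicate 2, and the change of 0.12 ± 0.05 was called higher (1.08 times more signal in LP, pfp 0.0464, exact permutation p = 0.0571, limma adjusted p = 0.649). The call was lost without 7 of the 8 arrays. In LP-R the same probe set read 10.43, 10.41 and 10.34 in CN-R and 10.26, 10.31, 10.44 and 10.40 in LP-R, a change of −0.04 ± 0.05. A second Prkar1a probe set, 1386905_at, varied only on the late arrays, with a change of −0.06 ± 0.04, and the last was nearly constant in both sets.

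Prkar2a encodes the type II alpha form. Its 3 probe sets were nearly constant on the early arrays, although the study listed the gene as lower in LP with a more methylated promoter. On the late arrays only 1371059_at varied, at 8.08, 8.11 and 8.16 in CN-R and 7.92, 8.14, 8.14 and 8.11 in LP-R. LP-R replicate 1 stood alone below the others, and the change was −0.04 ± 0.06.

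Prkaca and Prkacb encode the catalytic subunits. Prkaca was nearly constant at 8.68 on the early and 7.84 on the late arrays. Of the 3 Prkacb probe sets only 1371835_at varied, and only on the early arrays, at 9.28, 9.37, 9.24 and 9.28 in CN and 9.46, 9.38, 9.41 and 9.31 in LP. The change of 0.09 ± 0.04 (pfp 0.0594, exact permutation p = 0.0571) did not pass. LP replicate 4 lay below CN replicate 2 here as on Prkar1a 1388375_at.

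**Figure D3:**
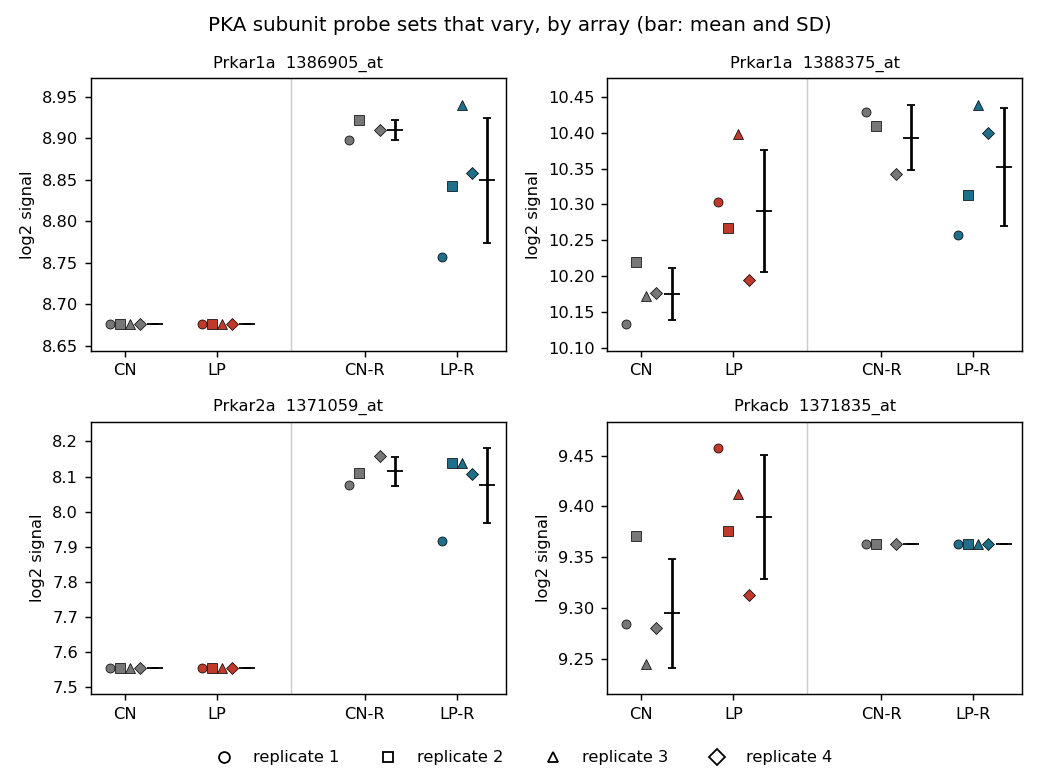
Log2 signal (vertical axis, a scale of its own in each panel) of the 4 PKA subunit probe sets that varied in at least 1 comparison, on each array, with the mean and SD beside each group and colors as in the plot of phosphodiesterases. Prkar1a 1388375_at and Prkacb 1371835_at lie higher in LP than in CN with some overlap, and 1386905_at and 1371059_at vary only on the late arrays.

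Over the 9 genes, 13 probe sets of 6 genes varied on the early arrays, of which 6 probe sets of 3 genes were called lower and 1 higher. The mean was lower in LP on 10 of these 13 and higher on 3, with a median change of −0.13, beside 0.02 over all 3974 varying probe sets. Among all varying probe sets 12.4% were called lower and 13.1% higher. On the late arrays 14 probe sets of 5 genes varied, 4 probe sets of 2 genes were called lower, and 0 higher. The mean was lower in LP-R on all 14 in the deposited values, with a median change of −0.12. When each array was centered on the median of its varying probe sets, every LP-R change moved up by 0.06, 12 of the 14 means were lower, Prkar1a 1388375_at (0.01) and Prkar2a 1371059_at (0.02) turned higher, and the median change was −0.07. Over all 3100 varying probe sets the median change was −0.02 in the deposited values, to be set beside the −0.12 of the members. Centering moves that median up by the same 0.06, so it is not to be set beside −0.07. Of these probe sets 1.71% were called lower and 3.45% higher. The groups did not overlap on 3 of the 14, or on 2 with centered arrays, and 3.32% of all varying probe sets were lower without overlap. A probe set could be called only if it varied, and the study itself named Crem, Pde4b, Pde4d, Prkar1a and Prkar2a in lists drawn from these rats. Their directions are therefore no independent evidence.

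The change in LP and the change in LP-R were then set against each other by an exact permutation test of the difference, adjusted over all 31042 probe sets, and 0 passed (smallest adjusted p = 0.689, and 6.00% at an unadjusted p under 0.05). For Pde4d the change in LP minus that in LP-R was −0.39, −0.25 and −0.20 on 1370569_at, 1368750_a_at and 1392968_at (exact p = 0.125, 0.291 and 0.140). For Pde4b the differences were 0.07 and 0.16 (exact p = 0.813 and 0.486), and for the Crem probe sets that varied at both times they ran from −0.03 to 0.20 (smallest exact p = 0.405). Prkar1a 1388375_at, higher in LP and not in LP-R, differed by 0.16 (exact p = 0.0461, adjusted p = 0.828). A Pde4d call in LP and none in LP-R is thus not shown to be a difference between the 2 times.

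**Figure D4:**
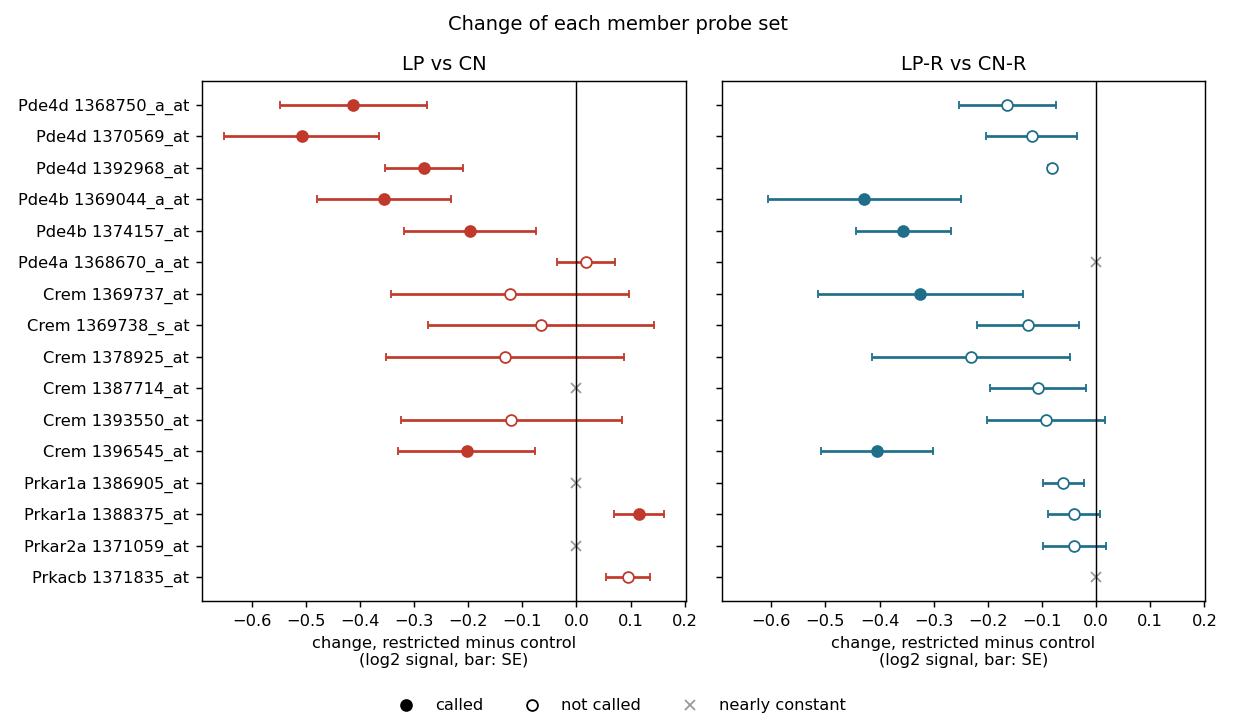
Change of each member probe set that varied in at least 1 comparison (horizontal axis, mean log2 signal of the restricted minus the control group, bars SE), for LP against CN (left) and LP-R against CN-R (right). Filled points were called by rank products, open points were not, and crosses mark nearly constant probe sets. The 3 Pde4d changes are called only on the left, from −0.51 to −0.28, and the Pde4b changes on both sides.

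Of 110 other genes of the route, 99 were measured, of which 10 were called lower and 2 higher in LP, and 6 lower and 1 higher in LP-R. Over all genes, 2.41% were called lower and 2.57% higher in LP, and 0.274% and 0.422% in LP-R. Of the 8 adenylyl cyclases measured, 0 were called at either time, and 1 varied. Among 17 receptors, G proteins and their regulators, 0 were called in LP and 1, Rgs2, in LP-R. Rgs2, which limits signaling through G proteins, read 9.03, 8.38 and 7.97 in CN-R and 8.05, 7.94, 7.71 and 7.83 in LP-R on 1368144_at, a change of −0.58 ± 0.32 (pfp 0.0154). CN-R replicate 1 stood above the others.

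Among 11 other phosphodiesterases, Pde2a, which hydrolyses both cAMP and cGMP, was called higher in LP, at 7.72, 7.67, 7.60 and 7.77 in CN and 7.85, 7.76, 7.83 and 7.77 in LP (0.12 ± 0.04, pfp 0.0464). Of 16 other PKA subunits, inhibitors and anchoring proteins, the anchoring proteins Akap9 and Akap13 were each called lower in LP on 1 probe set, with changes of −0.31 ± 0.17 on 1384857_at and −0.27 ± 0.22 on 1382268_at. Their other varying probe sets were not called, with changes of 0.01 ± 0.09 for Akap9 and −0.02 ± 0.15 for Akap13. Pkia, a protein inhibitor of PKA, was called lower in LP-R on 1368982_at, at 9.56, 9.82 and 9.89 in CN-R and 9.33, 9.36, 9.72 and 9.44 in LP-R (−0.30 ± 0.13, pfp 0.0368), and not on its other probe sets, where the changes were −0.21 ± 0.09 and −0.07 ± 0.04. Of 7 other proteins that bind cAMP, 0 were called. Among 11 CREB family factors and coactivators, the acetyltransferase Crebbp was called lower in LP (−0.30 ± 0.14, pfp 0.010).

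Of 12 PKA substrates and enzymes of glycogen and lipid breakdown, only Pygm was called. Pygm encodes muscle glycogen phosphorylase, which PKA turns on through phosphorylase kinase. On 1375476_at its log2 signal was 11.84, 11.86, 11.95 and 11.91 in CN and 11.55, 11.68, 11.65 and 11.71 in LP. The groups did not overlap, and the change was −0.24 ± 0.04 (pfp 0.00560, exact permutation p = 0.0286). On the late arrays the same probe set ran from 12.14 to 12.33 in CN-R and from 11.55 to 12.54 in LP-R, with overlap. Pygm 1383072_at was not called in LP, with a small change of −0.06 ± 0.01 (pfp 0.0518) and no overlap. Pygm 1370982_at was nearly constant on the early arrays.

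Genes known to be induced through cAMP response elements were the group with most calls. They were also the group with most varying genes, and a probe set could be called only if it varied. Of 17 measured, 14 varied on the early arrays, and 6 were called lower (Cebpb, Nfil3, Nr4a2, Nr4a3, Ppargc1a and Slc25a25) and 1, Fosb, higher. Means were lower in LP for 8 of the 14, with a median change of −0.12. Among all varying probe sets, 12.4% were called lower and 13.1% higher in LP, and 1.71% and 3.45% in LP-R. These shares are per probe set, whereas a gene counted as called if any of its probe sets was, so the 2 are not alike. The study had already listed Nr4a1, Nr4a2 and Slc25a25 as lower in both LP and LP-R, so their directions are no independent evidence. Cebpb, a transcription factor of the C/EBP family, read 11.88, 12.04, 11.93 and 11.86 in CN and 11.68, 11.89, 11.72 and 11.57 in LP, a change of −0.21 ± 0.08 (pfp 0.0189). Nfil3, a repressor among the clock output genes, fell by 0.14 ± 0.06. Ppargc1a, the coactivator of mitochondrial genes, and Slc25a25, a mitochondrial carrier, were called with errors larger than their changes. For Ppargc1a these were −0.51 ± 0.62 on 1370089_at, −0.06 ± 0.64 on 1393743_at and −0.07 ± 0.63 on 1395518_at, and for Slc25a25 −0.63 ± 0.77. Slc25a25 stood at 6.98 in LP replicate 4 and between 9.10 and 10.38 on the other early arrays. Nr4a2 and Fosb, named here for the counts, were likewise spread widely within both groups, and the Nr4a2 change of −0.27 ± 0.67 had an exact permutation p of 0.714. Nr4a3 was called lower on 1369067_at alone (−0.13 ± 0.55), and its other varying probe sets gave 0.09 ± 0.12 and 0.06 ± 0.35.

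In LP-R, 4 of these 17 genes were called lower (Fos, Nr4a1, Nr4a2 and Slc25a25) and 1, Nr4a3, higher on 1 of its probe sets. Means were lower for 13 of the 14 that varied, with a median change of −0.27. Fos, an immediate early gene, read 11.04, 8.67 and 8.71 in CN-R and 8.72, 8.23, 8.68 and 8.02 in LP-R, a change of −1.06 ± 0.80 (pfp 0.0150, exact permutation p = 0.143). The size of that change came from CN-R replicate 1. Nr4a2, an orphan nuclear receptor, read 9.43, 7.13 and 6.82 in CN-R and 7.44, 6.75, 6.59 and 6.44 in LP-R on 1369007_at, with the same array high. Slc25a25 (−0.82 ± 0.54) and Nr4a1 (−0.45 ± 0.41) were also highest in CN-R replicate 1. On the late arrays that rat was therefore highest for Fos, Nr4a1, Nr4a2, Slc25a25 and Rgs2 and, among the CN-R rats, lowest on 5 of 6 Crem probe sets. Crem 1396545_at was the one member probe set called in LP-R on which it was highest. For Fos, Nr4a1, Slc25a25, Nr4a2 1369007_at and Rgs2 1368144_at, replicate 1 was also the highest array within CN, LP and LP-R. For Nr4a1 in CN the lead was small (10.763, with 10.758 in replicate 2). On Nr4a2 1387410_at, LP replicate 2 (7.32) lay above LP replicate 1 (7.29). High signals on the 5 probe sets named thus went with the replicate number in every group, and the cause was not tested.

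**Figure D5:**
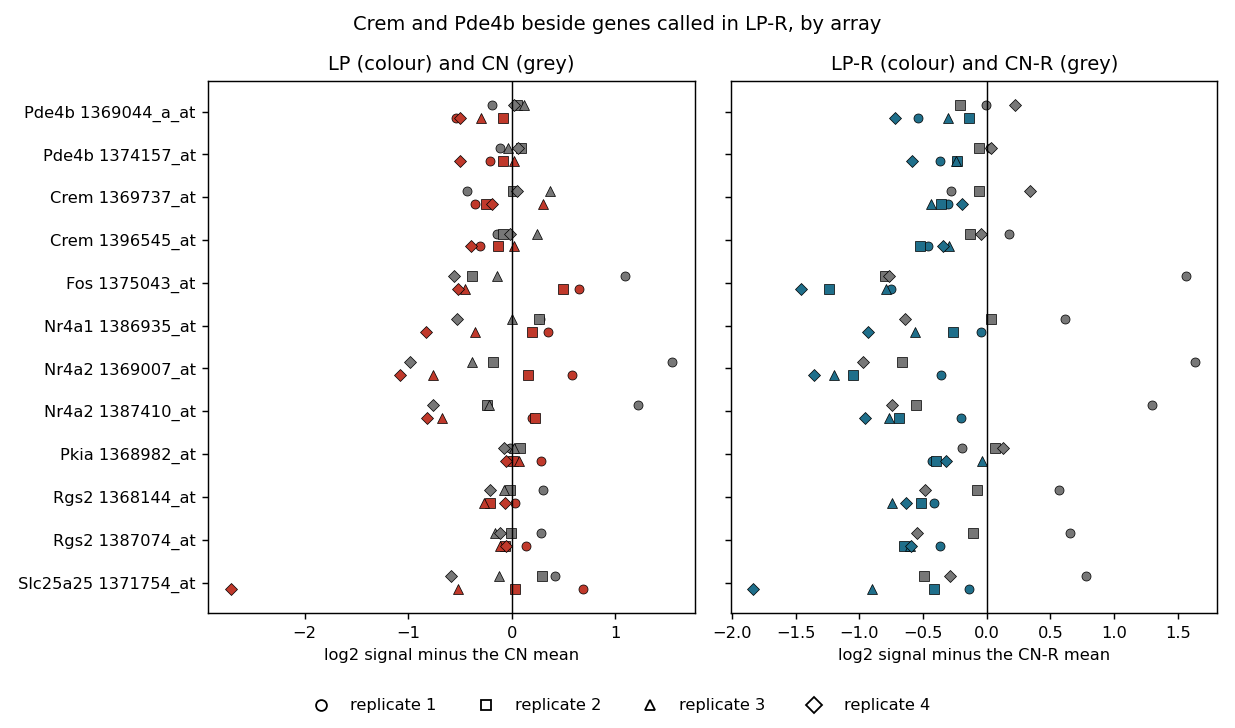
Log2 signal of each array minus the mean of its control group (horizontal axis) for the 4 probe sets of Pde4b and Crem and the 8 of other genes of the route called lower in LP-R, with restricted rats in color and controls in grey. On the late arrays (right) CN-R replicate 1 (circle) stands alone for Fos and Nr4a2, while the Pde4b and Crem values of the controls lie closer together.

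The genes whose signals ran closest to those of Pde4d, Pde4b and Crem were found by the root mean square difference (RMSD) of log2 signals, each centered on its mean over the arrays of a set. Over the 8 early arrays and 3211 probe sets, the nearest to Pde4d were Map1b (RMSD 0.121), Art1, Trim63, Ampd3 and Eprs1 (up to 0.138). Trim63 encodes the muscle ubiquitin ligase MuRF1 and Ampd3 an AMP deaminase. The nearest to Pde4b were Maf (0.0900), Usp2, Cebpb, Chd4 and Nedd4 (up to 0.126), of which Usp2 is a deubiquitinase and Nedd4 a ubiquitin ligase. The nearest to Crem (1378925_at) were Sdc4 (0.134), Zfp385b, Ell2, Cd300c2 and Bag2, whose own changes lay between −0.12 and 0.02. Over the 7 late arrays and 2478 probe sets, the nearest to Pde4d (1368750_a_at) were Sgcb (0.0434), the PKA inhibitor Pkia (0.0451), Mbnl2, Crem on 1387714_at (0.0506) and Rhoa. The nearest to Pde4b were Zfp503 (0.127), Lyve1, Prkaa1, Plpp3 and Id3, and the nearest to Crem (1369737_at) were Selenof (0.144), Cpxm2, Arhgap28, LOC100909739 and Mrps18c.

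Markers of other cell types were read beside these results. In LP, 2 of 5 endothelial markers measured, Kdr and Tie1, were called higher, and the summed log2 signal of the varying endothelial probe sets was 32.44 to 32.94 in LP and 31.87 to 32.21 in CN, without overlap. Col1a1, 1 of 4 fibroblast markers, was called lower, and Adipoq, 1 of 4 adipocyte markers, higher, with summed signals of 48.88 to 49.59 against 48.63 to 50.28 and of 18.15 to 20.08 against 18.11 to 19.26. Of the 9 muscle, 4 immune, 2 blood and 1 Schwann cell markers measured, 0 were called in LP. In LP-R the slow myosin Myh7 was called lower and the fast myosin Myh1 higher, the summed muscle signal being 121.35 to 122.92 in LP-R and 122.24 to 123.14 in CN-R, and 0 markers of the other cell types were called. The part of these shifts in the Pde4d, Pde4b and Crem results was not tested.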

How the data were processed

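The deposited values are log2 signals for each probe set, which the authors made from GeneChip arrays with FARMS in R, without pooling rats. Their near constants show that the early and late arrays were processed as separate sets, since 94.7% of the 26041 probe sets that barely vary in either differed between them by over 0.01. No further normalization was applied. After removal of 57 control probe sets, 31042 remained, of which 20826 carry 1 gene symbol, 436 several and 9780 none in the platform annotation. Pearson's r between arrays was 0.997 to 0.999, across probe sets, which are not independent. The number of arrays limits the precision. The methylation arrays were not analysed here.

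Rank products were computed in Python 3.11.15 (numpy 2.4.6, pandas 2.3.3) from every pairing of a restricted with a control array, using 100 reshufflings of each array's values (seed 1), and limma 3.58.1 ran in R 4.3.3. Both were tested on simulated data. The reshuffling gives every probe set the same spread. Reshuffling values centered for each probe set gave 156 lower and 65 higher calls in LP-R in place of 53 and 107. That setting was added after the values were seen. Exact permutation tests enumerated every split of the rats, which were 2450 for the difference between the changes. The replicate numbers were not taken to pair the rats in the main tests, and a replicate block was run as an alternative. Between same-numbered arrays r of the deviations was 0.55, −0.03, 0.17 and 0.40 for LP with CN. It was 0.04, 0.19 and 0.22 for LP-R with CN-R. What the replicate number stands for was not tested.

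The members and gene lists were chosen with earlier results of these data known. Named were all member probe sets, up to 4 called genes of each list in each comparison by smallest limma p, and the 5 nearest genes. Nr4a3, Nr4a2 in LP and Fosb were named outside this rule, after their values were seen. Alternatives were limma, quantile normalization, median centering, filters on dim and on nearly constant probe sets, a replicate block, the omission of each array in turn and the other placement of CN-R replicate 4.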

Additional observations from a re-analysis of the deposited data

Results flagged for a closer look

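In groups of 4 rats, an array was noted where the gap between it and its nearest neighbor, as a share of the range of the group, passed Dixon's critical value, which chance gives in about 1 of 20 groups. Of 40 groups of 4 examined over the member probe sets, 2 held such an array. LP-R replicate 3 read 10.21 on Pde4d 1392968_at, where the other LP-R arrays read 10.18 to 10.19. LP-R replicate 1 read 7.92 on Prkar2a 1371059_at, where the others read 8.11 to 8.14.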

How the results depend on the processing

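Quantile normalization kept the counts of calls reported for the members, and rank products, which rank differences within pairs of arrays, cannot change with median centering. Median centering did move the size of the late changes by over 1.5 times on several uncalled probe sets, such as Pde4d 1370569_at (−0.12 to −0.06) and 1392968_at (−0.08 to −0.03) and Crem 1369738_s_at (−0.13 to −0.07), 1387714_at (−0.11 to −0.05) and 1393550_at (−0.09 to −0.04). Pde4d 1368750_a_at went from −0.16 to −0.11. It turned the sign for Prkar1a 1388375_at and Prkar2a 1371059_at (to 0.01 and 0.02), and took Prkar1a 1386905_at from −0.06 to −0.0052. The early changes moved by 0.0024, and with centered arrays LP lay above CN without overlap on Prkar1a 1388375_at (exact permutation p = 0.0286). limma called 0 members and 0 other genes of the route in place of 6 lower and 1 higher member probe sets in LP, 4 lower in LP-R, 10 lower and 2 higher genes in LP, and 6 lower and 1 higher in LP-R. limma with the replicate block also called 0 members at either time. Rank products within replicate numbers (replicate block) called 9 lower and 2 higher in LP and 5 lower in LP-R, and 5 of 8 early and 3 of 6 late arrays with a partner correlated best with their own number. Over the varying probe sets alone, 1 member (Pde4d 1370569_at) was lower in LP, 0 were higher and 0 lower in LP-R, and 1 other gene was lower and 0 higher in LP, with 0 in LP-R. Over the upper part of the signal range, 4 members were lower and 0 higher in LP, 3 lower in LP-R, 6 other genes were lower and 0 higher in LP, and 0 higher in LP-R. With CN-R replicate 4 counted as LP-R, 0 members were lower. With values centered before permutation, 10 other genes were lower and 0 higher in LP-R, and 7 and 5 members were lower in LP and LP-R. Over all probe sets, 492 lower and 522 higher calls in LP became 20 and 11 over the varying ones alone and 236 and 114 over the upper part of the signal range. In LP-R, 53 and 107 became 2 and 5, 29 and 51, and 132 and 47 within replicate numbers. Where counts changed, the cause was not tested, except that the filters leave fewer probe sets to rank. The filter on nearly constant probe sets also changes the pfp. Unfiltered, those probe sets hold the middle ranks in the data but any rank after reshuffling, so the pfp of varying ones comes out smaller.

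With each array left out, 4 to 10 member probe sets were lower in LP and 0 to 2 higher, and 0 to 5 lower in LP-R. For the other genes the ranges were 2 to 14 lower and 0 to 7 higher in LP, and 0 to 9 lower and 0 to 2 higher in LP-R. Centered values gave 4 to 9 lower and 0 higher members in LP and 0 to 5 lower in LP-R, and 3 to 13 lower and 0 to 5 higher other genes in LP, and 0 to 9 lower and 0 to 1 higher in LP-R. The most members in LP, 10, came without LP replicate 3, and the fewest in LP-R, 0, without each CN-R array. Without 1 LP array, 391 to 626 of all probe sets were called lower and 104 to 195 higher. Without 1 CN array, 133 to 271 were called lower and 424 to 635 higher. Which calls were kept thus depended in part on which group lost an array. The difference between the changes passed for 0 probe sets of the members in each setting run.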
